A study of Mus musculus with 33 samples.

Results

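Alveolar macrophages (AMs) that carry *Itgax*-cre and floxed *Zeb2* but stayed negative for CD11b were compared here with AMs of control mice without Cre. The 5 CD11b- AM samples came from *Itgax*-crexZeb2 fl/fl mice and the 5 CRE- AM samples from *Zeb2* fl/fl mice, so that both groups carry the floxed allele, and these 10 of the 33 samples of the series were chosen by their labels alone. The 5 CD11b+ AM samples of *Itgax*-crexZeb2 fl/fl mice served to show where the CD11b- fraction differs from the other fraction of the same genotype. All mice were 6 to 8 weeks old, each sample held 25000 sorted lung macs, and the assay was bulk RNA-seq with reads counted per gene. The labels call both CRE+ fractions Zeb2KO, although the study also describes CRE+ cells that keep a copy of the gene, and the Cre is driven by the promoter of *Itgax* (CD11c), which other CD11c-expressing cells use as well. The labels do not say whether the replicates came from separate mice, so p-values measure the spread between these samples. In sorted pools, fewer cells that express a gene and less RNA per cell cannot be told apart.

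AMs live on the surface of the airspaces, where they clear surfactant lipid, inhaled particles and dying cells, and they depend on the cytokines GM-CSF and TGF-β and on the nuclear receptor PPARγ. ZEB2 is a zinc finger transcription factor that mostly represses its targets. It is best known from epithelial to mesenchymal transition, in which ZEB proteins bind E-box motifs and repress junction genes such as *Cdh1*, which encodes E-cadherin.

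The depth did not separate the groups. The genes of each CD11b- sample received 17454078 to 23945366 counts and those of each CRE- sample 19427005 to 21726715 (exact permutation test, two-sided, p = 0.913, n = 5 and 5). Genes with at least 10 counts numbered 11000 to 11366 and 11017 to 11147, respectively, and 3 counts, taken as the smallest detectable amount, corresponded to 0.120 to 0.169 CPM in CD11b- AMs, where CPM are counts scaled to the same total in each sample. The 10 most abundant genes took 13.4% to 14.6% of the counts in CD11b- AMs and 12.4% to 13.6% in CRE- AMs (exact permutation test, two-sided, p = 0.0238, n = 5 and 5). Levels below are CPM after TMM normalization, which adjusts for differences in composition of this kind, and samples are listed in the order of replicates 1 to 5. The AM label held in both groups, although some AM markers were lower in CD11b- AMs. *Chil3*, *Siglecf*, *Itgax*, *Car4*, *Plet1*, *Mrc1*, *Pparg* and *Marco* all had over 200 CPM on average in each group. *Ear1*, *Ear2* and *Krt79* did so too. For these genes and for *Siglecf*, every CD11b- sample lay under every CRE- sample. *Krt79* had 367 to 449 CPM in CRE- AMs and 240 to 305 CPM in CD11b- AMs. *Fabp4* was less abundant, at 79.4 to 94.9 and 26.9 to 47.8 CPM. *Marco* was higher in CD11b- AMs. The summed level of 36 AM identity genes was 43476 to 52774 CPM in CD11b- AMs and 40415 to 51639 CPM in CRE- AMs. *Chil3* and *Cd9* made up 56.0% to 66.1% of this sum in these samples, so that it says little of the other members.

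The targeted gene was examined first. *Zeb2*, on chromosome 2 from 44983632 to 45117395 on the minus strand (GRCm38), had 179, 166, 201, 200.5 and 201 CPM in CRE- AMs and 110.0, 106, 82.6, 110.1 and 103 CPM in CD11b- AMs, so the groups did not overlap. The level was 1.85-fold lower in CD11b- AMs (log2 fold change -0.89, SE 0.09, adjusted p = 8.68e-07 from the quasi-likelihood fit of edgeR, adjusted after Benjamini and Hochberg), which passed the test but not the 2-fold limit used for calls. CD11b+ AMs had 68.2, 66.2, 57.7, 59.7 and 48.9 CPM, lower again than CD11b- AMs (log2 difference -0.77, adjusted p = 3.50e-06). A floxed allele loses only the part between its loxP sites, and reads from the rest of the transcript are still counted on the gene, so this level cannot give the share of cells that lost *Zeb2*. *Itgax*, whose promoter drives the Cre, had 626 to 775 CPM in CRE- AMs and 907 to 1113 CPM in CD11b- AMs, and *Siglecf*, a lectin used to recognise AMs, had 468 to 586 and 312 to 388 CPM. Both passed the test without reaching a 2-fold change, with log2 fold changes of 0.48 (adjusted p = 2.27e-05) and -0.53 (adjusted p = 3.53e-05).

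**Figure D1:**
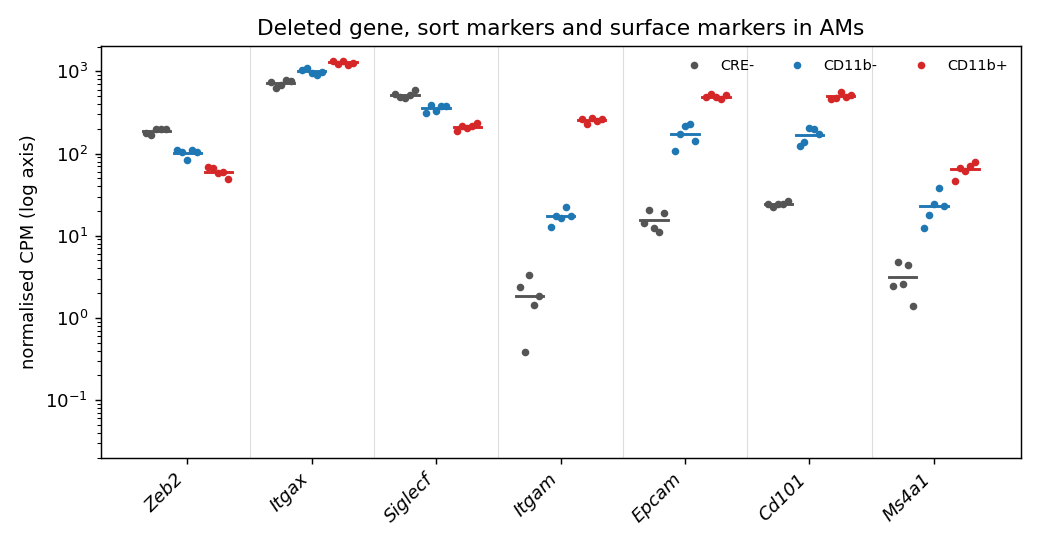
Level of Zeb2, the sort markers Itgax, Siglecf and Itgam, and the surface markers Epcam, Cd101 and Ms4a1 in the 5 CRE- (grey), 5 CD11b- (blue) and 5 CD11b+ (red) AM samples, as normalised CPM on a log axis, with points for samples and bars for means. In each gene the CD11b- samples lie between the CRE- and the CD11b+ samples, and Itgam is the one for which they lie farthest from CD11b+ samples, at 12.9 to 22.1 against 227 to 270.1 CPM.

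Surface markers that separated the CRE+ fractions were already raised in CD11b- AMs. *Itgam*, which encodes CD11b and by which the fractions were sorted, had 2.35, 0.383, 3.33, 1.44 and 1.84 CPM in CRE- AMs, 12.9, 17.2, 16.6, 22.1 and 17.3 CPM in CD11b- AMs and 261, 227, 270.1, 251 and 267 CPM in CD11b+ AMs. The CD11b- samples thus stood above every CRE- sample and far under every CD11b+ sample (log2 fold change against CRE- AMs 3.19, SE 0.25, adjusted p = 1.11e-08). *Epcam*, an adhesion molecule of epithelia, had 14.5, 20.6, 12.3, 11.0 and 18.9 CPM in CRE- AMs and 108, 173, 216, 229 and 142 CPM in CD11b- AMs, a 11.3-fold increase (SE 0.19 on the log2 scale, adjusted p = 8.29e-11). *Cd101*, a surface glycoprotein of myeloid and T cells, had 24.7, 22.1, 24.1, 24.3 and 26.2 CPM and 124, 140.1, 204, 199 and 175 CPM, a 6.93-fold increase (adjusted p = 2.38e-12). *Ms4a1*, which encodes CD20 and is best known from B cells, had 2.48, 4.74, 2.61, 4.41 and 1.39 CPM and 12.3, 17.9, 24.6, 38.4 and 22.9 CPM, a 7.39-fold increase (adjusted p = 5.97e-07). Replicate 1 was the lowest of the CD11b- samples for all 4 genes, and replicate 4 was the highest for *Itgam*, *Epcam* and *Ms4a1*. No CD11b- sample overlapped with the CRE- samples in any of them.

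Of 24421 genes in the files, 11573 passed the filter on low counts and were tested. A gene was called with an adjusted p under 0.05 and a log2 fold change above 1 in size, and 461 genes were called higher (3.98% of those tested) and 291 lower (2.51%) in CD11b- than in CRE- AMs. The adjusted p alone was passed by 1534 higher and 1438 lower genes, and the median log2 fold change of all genes tested was 0.0027. Counts of list members given below are to be read beside these values for all genes tested. All 5 CD11b- samples lay above all 5 CRE- samples for 344 of the genes called higher, and below them for 223 of those called lower. These genes were picked by the test on the same samples, so this separation is no further support. The share over all genes tested was not counted. Many of these genes were low. Only 91 of the genes called higher averaged at least 32 CPM in CD11b- AMs and 51 of those called lower did so in CRE- AMs, and 45 of the genes called higher had no count in any CRE- sample. A fold over 4 was reached by 259 genes in the upward and 107 in the downward direction.

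**Figure D2:**
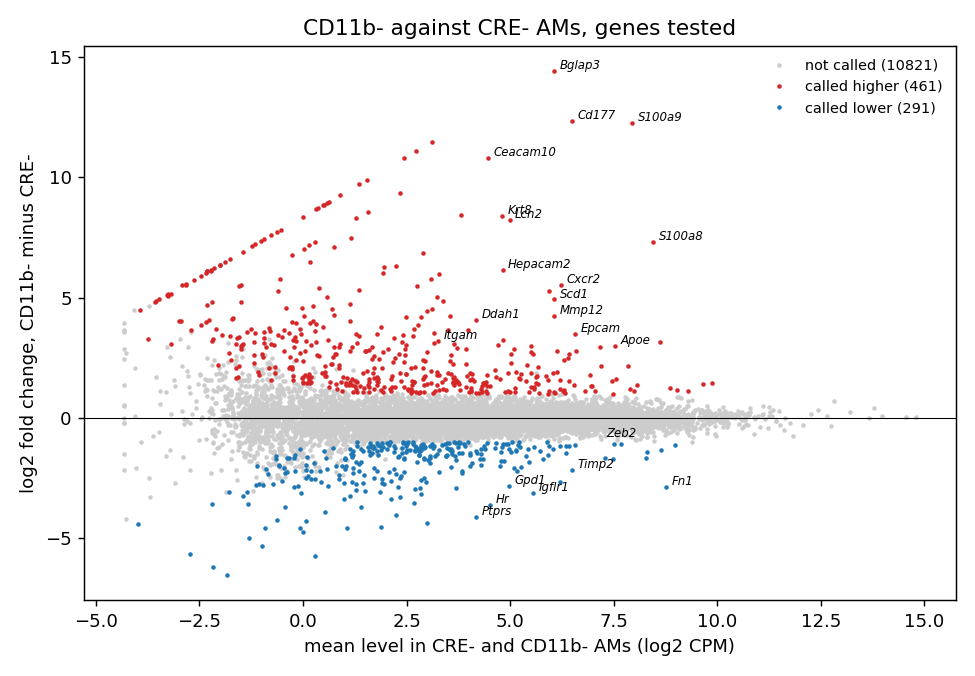
Log2 fold change of each of the 11573 tested genes, CD11b- minus CRE- AMs (y axis), against the mean level in both groups as log2 CPM (x axis, with levels under 0.05 CPM drawn at 0.05). Red points are the 461 genes called higher and blue points the 291 called lower, and the straight edge at the upper left is formed by genes without a count in CRE- AMs, for which the fitted size rests on an added prior count.

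The largest increases among well expressed genes were mostly in genes with few or no counts in CRE- AMs, and 5 of the 12 largest were on the list of neutrophil genes. *S100a9*, which with *S100a8* forms the calcium-binding protein calprotectin, had 0, 0.239, 0.180, 0 and 0.0496 CPM in CRE- AMs and 254, 313, 615, 796 and 490.1 CPM in CD11b- AMs. Its log2 fold change was 12.29 (SE 0.45, adjusted p = 3.36e-13). *S100a8* had 4.35, 4.55, 5.94, 4.36 and 2.73 CPM and 353, 454, 882, 1208 and 593 CPM (log2 fold change 7.31, SE 0.32, adjusted p = 3.10e-12). For both genes CD11b- replicate 1 was the lowest and replicate 4 the highest, with a more than 3-fold spread inside the group. *Cd177*, a surface glycoprotein of neutrophils, had 3 counts in all CRE- samples together and 109, 127, 209, 211 and 239.8 CPM in CD11b- AMs, a ratio of 6355 (95% exact interval 2174 to 30818) that covers counting error only. *Lcn2*, which binds bacterial siderophores, had 0.391, 0, 0.180, 0.325 and 0.0992 CPM in CRE- AMs and 26.1, 56.4, 91.9, 106 and 36.8 CPM in CD11b- AMs (log2 fold change 8.24, SE 0.50, adjusted p = 3.38e-10). *Cxcr2*, a receptor for neutrophil-attracting chemokines, had 4.78, 2.01, 3.15, 2.27 and 3.67 CPM and 84.9, 126, 164, 230.2 and 127 CPM (log2 fold change 5.52, SE 0.25, adjusted p = 5.51e-12).

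The neutrophil list as a whole was uneven. Of its 20 genes, 19 were in the files and 10 were tested, and 8 of these were called higher in CD11b- AMs, at a median log2 fold change of 4.36. Members near 0 in CRE- AMs, such as *S100a9*, *Cd177* and *Lcn2*, passed the filter on low counts through the CRE+ groups. The number tested and the median therefore depend in part on that filter. With at least 10 counts required in every sample, 4 members were called higher. Besides the genes above, *Ltf* (lactoferrin, 0.169 and 1.62 CPM on average), *Mmp8* (a collagenase, 55.5 and 188 CPM) and *Csf3r* (the G-CSF receptor, 37.5 and 111 CPM) rose. The genes of primary granules *Elane*, *Mpo*, *Prtn3* and *Ctsg* had no count in any sample of either group, and neither had *Ngp*. *Camp* had none in CD11b- AMs, and *Mmp9* and *Retnlg* averaged 0.00980 and 0.0407 CPM there. The summed level of the list was 89.7 to 114 CPM in CRE- AMs, 1128 to 2892 CPM in CD11b- AMs and 10173 to 12952 CPM in CD11b+ AMs. The part of neutrophils in these levels was not tested.

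Other genes of this group have less clear ties to a cell type. *Bglap3*, a relative of osteocalcin, had no count in any CRE- sample and 63.4, 101, 209.6, 169 and 127 CPM in CD11b- AMs, at least 960.1-fold higher against a floor of 3 counts per library. It has near-identical neighbours, *Bglap* and *Bglap2*, at most 0.318 and 0 CPM in CD11b- AMs, between which reads could be split. *Ceacam10*, a member of the carcinoembryonic antigen family, had 2 counts in all CRE- samples together and 29.4, 26.7, 59.6, 59.9 and 46.9 CPM in CD11b- AMs, a ratio of 2349 (95% exact interval 649.9 to 19403). *Hepacam2*, a cell adhesion protein with immunoglobulin domains, had 0.304, 0.383, 0.540, 1.35 and 1.39 CPM and 29.4, 40.2, 71.2, 84.3 and 53.5 CPM (log2 fold change 6.14, SE 0.33, adjusted p = 6.38e-11). *Mmp12*, the elastase of macs, had 7.17, 7.18, 4.95, 9.23 and 5.11 CPM and 204, 80.3, 125, 95.7 and 127 CPM (log2 fold change 4.23, SE 0.28, adjusted p = 9.68e-10), and here replicate 1 was the highest of the CD11b- samples. *Ddah1*, which degrades an inhibitor of nitric oxide synthases, had 1.65, 3.73, 0.315, 0.835 and 3.77 CPM and 45.7, 37.3, 26.1, 37.3 and 25.3 CPM (log2 fold change 4.07, SE 0.42). *Ddah1* was the only one of the 12 largest increases that was lower in CD11b+ AMs, at 13.4, 13.6, 7.80, 7.91 and 7.05 CPM, than in CD11b- AMs.

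**Figure D3:**
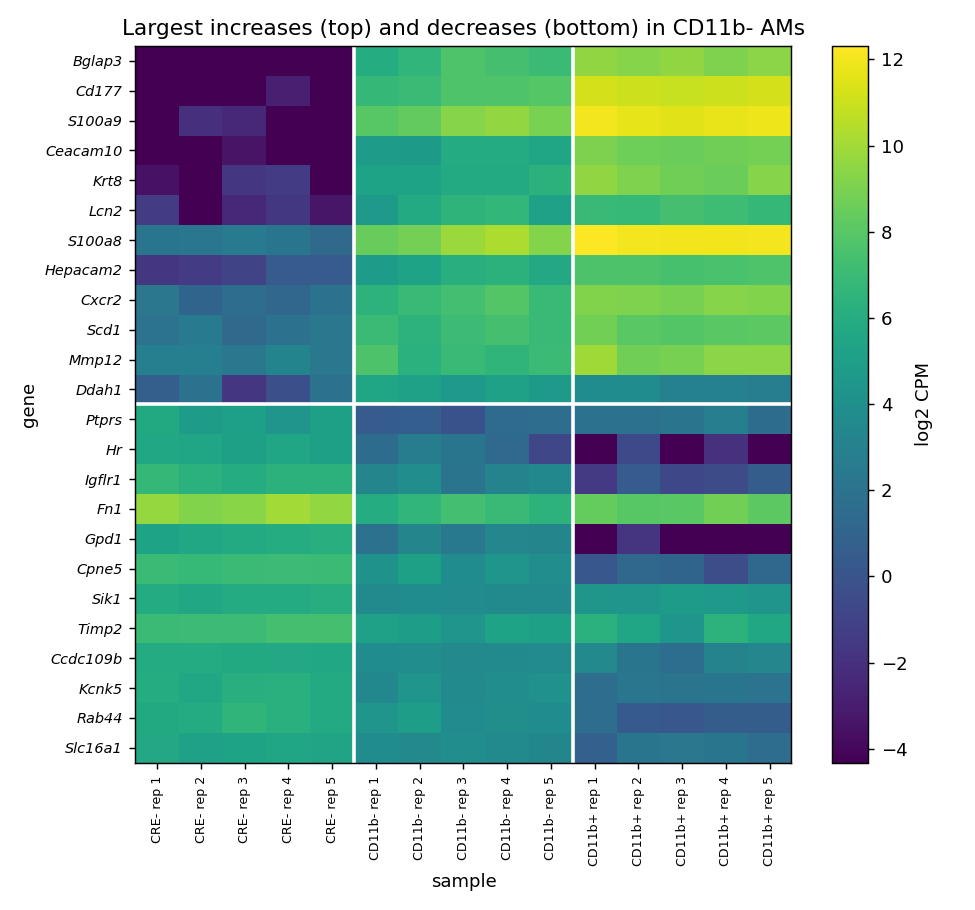
Level of the 12 largest increases (upper block) and the 12 largest decreases (lower block) of CD11b- against CRE- AMs, as log2 CPM per sample, with levels under 0.05 CPM drawn at 0.05. Columns are the 5 replicates of CRE-, CD11b- and CD11b+ AMs, and in 11 of the 12 upper genes the CD11b+ samples are brighter on average than the CD11b- samples, with Ddah1 as the exception.

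By number, the list of epithelial junctions and keratins held more called genes that rose than any of the other 35 lists examined, which differ in size. By share, the neutrophil list held more (8 of 10 tested), a share that depends in part on the filter on low counts. By the adjusted p alone, 16 epithelial genes were higher against 18 on a list of antioxidant and metal handling genes. Of 48 genes on the epithelial list, 33 passed the filter. Of these, 13 were called higher and 2 lower, beside 3.98% and 2.51% of all genes tested. The median log2 fold change was 0.84 against 0.0027 for all genes tested. Genes near 0 in CRE- AMs, such as *Krt8* and *Crb3*, passed the filter through the CRE+ groups. With at least 10 counts required in every sample, 6 members were called higher. *Krt8*, which encodes a keratin of simple epithelia, had 0.0870, 0, 0.315, 0.371 and 0 CPM in CRE- AMs and 40.6, 39.3, 58.3, 57.1 and 82.7 CPM in CD11b- AMs (log2 fold change 8.41, SE 0.40, adjusted p = 9.84e-12). Its partner *Krt18* averaged 0.378 and 4.49 CPM. The polarity gene *Crb3* had 1 count in all CRE- samples together and 3.14, 4.18, 5.91, 7.25 and 3.81 CPM in CD11b- AMs, a ratio of 516 (95% exact interval 92.1 to 20409). *St14*, a membrane-bound serine protease, had 0.870, 0.718, 0.630, 0.650 and 0.595 CPM and 14.9, 13.9, 24.1, 38.6 and 9.60 CPM (log2 fold change 4.85, SE 0.35, adjusted p = 3.77e-09). *Spint2*, an inhibitor of such proteases, averaged 9.03 and 56.3 CPM.

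Genes of junction proteins moved with them. *Cdh1* was already present in CRE- AMs, at 72.8 to 110.4 CPM, and reached 217 to 300.0 CPM in CD11b- AMs (log2 fold change 1.53, SE 0.11, adjusted p = 3.39e-09). The claudins *Cldn1* and *Cldn7*, proteins of tight junctions, had mean levels of 23.6 and 0.520 CPM in CRE- AMs and 149 and 4.05 CPM in CD11b- AMs. *Tjp3*, a scaffold of tight junctions, had 0.913 to 2.32 CPM in CRE- AMs and 14.3 to 27.1 CPM in CD11b- AMs. *Ap1m2*, an adaptor of basolateral sorting in epithelia, and *Esrp1*, a splicing factor of epithelia, also rose, to averages of 1.95 and 0.636 CPM. The CD11b- and CRE- samples overlapped for both of them. The genes called lower were *Lad1*, a basement membrane protein (4.25 and 0.892 CPM), and *Ovol2*, an epithelial transcription factor (7.40 and 2.36 CPM).

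Other members did not follow. *Cldn4*, *Dsp* and *Pkp1* had no count in either group, *Grhl2* and *Elf3* had none in CD11b- AMs, and *Rab25* and *Prss8* stayed at averages of 0.0997 and 0.221 CPM. By the adjusted p alone, 16 of the 33 members were higher and 4 lower, beside 1534 and 1438 of all 11573 genes tested. Among these members were the plakoglobin gene *Jup* and the protease inhibitor *Spint1* (log2 fold changes 0.64 and 0.63) and the occludin gene *Ocln* (-0.62). *F11r*, *Lsr* and *Marveld2*, junction genes that CRE- AMs already expressed, had log2 fold changes between -0.02 and 0.10 and did not pass the test. Secreted products of lung epithelium were measured as a sign of epithelial cells in the sort. *Sftpc*, the surfactant protein C gene, averaged 13.2 and 18.4 CPM in CRE- and CD11b- AMs (adjusted p = 0.0566), and *Scgb1a1* of club cells 5.33 and 7.56 CPM (adjusted p = 0.230). *Sftpa1*, the surfactant protein A gene, had 4.52, 3.02, 3.64, 3.02 and 3.42 CPM in CRE- AMs and 6.27, 7.41, 9.32, 6.63 and 5.11 CPM in CD11b- AMs, without overlap and with a log2 fold change of 0.98 (adjusted p = 0.00191), just short of the 2-fold limit. Of 18 genes on the list of lung epithelial products, 14 were tested, of which 2 were called higher (*Hopx* and *Muc1*) and 1 lower (*Napsa*, 68.4 to 85.8 and 21.8 to 37.3 CPM). The call of *Muc1* did not hold in 7 of 18 alternatives, 5 of which leave out 1 replicate. The median of the list was 0.45. Its summed level was 104 to 123 CPM in CRE- AMs and 76.7 to 102 CPM in CD11b- AMs, of which *Napsa* made up 63.5% to 69.9% and 26.1% to 37.5%. Without *Napsa*, a sum taken after the values were seen, it was 35.8 to 42.1 CPM in CRE- AMs and 52.0 to 64.4 CPM in CD11b- AMs, so the other members were higher together in every CD11b- sample. The part of lung epithelial cells in the epithelial genes that rose was not tested.

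**Figure D4:**
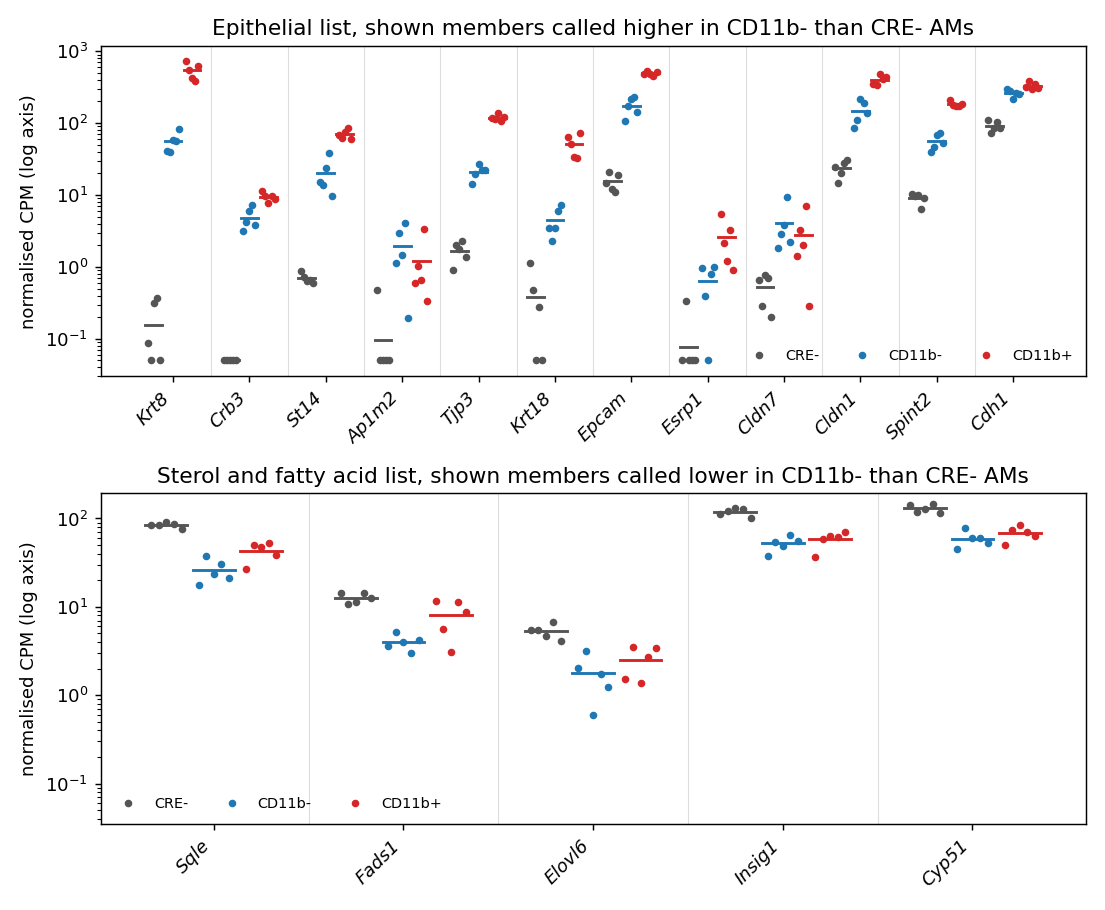
Level of 12 epithelial genes called higher (top) and 5 sterol and fatty acid genes called lower (bottom) in CD11b- than CRE- AMs, as normalised CPM on a log axis, with values under 0.05 drawn at 0.05. Points are the samples of CRE- (grey), CD11b- (blue) and CD11b+ (red) AMs and bars are means, and for Sqle the CD11b- samples (17.6 to 37.1 CPM) lie under all CRE- samples (75.7 to 92.4 CPM).

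Promoters of some of the epithelial genes that rose are shown for the E-box CAGGTG, read as CACCTG on the other strand, which ZEB proteins are known to bind. The windows run from 250 bases before to 50 after the annotated start of transcription, 5′ to 3′ on the strand of the gene (RefSeq, GRCm38.p6), and capitals mark each match on either strand.
*Epcam* (chr17:87635729-87636028, plus strand): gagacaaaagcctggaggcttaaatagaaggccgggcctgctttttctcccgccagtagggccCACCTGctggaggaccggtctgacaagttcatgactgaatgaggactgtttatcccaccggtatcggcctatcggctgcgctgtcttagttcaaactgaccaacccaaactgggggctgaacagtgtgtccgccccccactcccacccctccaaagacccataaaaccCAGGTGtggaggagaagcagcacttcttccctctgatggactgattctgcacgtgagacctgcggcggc
*Krt8* (chr15:102004293-102004592, minus strand): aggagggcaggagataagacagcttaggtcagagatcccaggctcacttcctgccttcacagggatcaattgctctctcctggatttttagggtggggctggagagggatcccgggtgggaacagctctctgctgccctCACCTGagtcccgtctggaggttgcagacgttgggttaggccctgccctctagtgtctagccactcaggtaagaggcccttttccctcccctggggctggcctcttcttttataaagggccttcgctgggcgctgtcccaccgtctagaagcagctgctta
*Spint2* (chr7:29281928-29282227, minus strand): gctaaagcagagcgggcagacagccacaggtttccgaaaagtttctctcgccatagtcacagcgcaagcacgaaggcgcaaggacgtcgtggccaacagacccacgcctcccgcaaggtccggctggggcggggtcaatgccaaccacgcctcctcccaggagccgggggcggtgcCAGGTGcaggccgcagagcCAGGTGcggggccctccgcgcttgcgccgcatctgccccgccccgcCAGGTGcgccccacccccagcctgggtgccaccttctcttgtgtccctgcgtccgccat
*Crb3* (chr17:57061951-57062250, plus strand): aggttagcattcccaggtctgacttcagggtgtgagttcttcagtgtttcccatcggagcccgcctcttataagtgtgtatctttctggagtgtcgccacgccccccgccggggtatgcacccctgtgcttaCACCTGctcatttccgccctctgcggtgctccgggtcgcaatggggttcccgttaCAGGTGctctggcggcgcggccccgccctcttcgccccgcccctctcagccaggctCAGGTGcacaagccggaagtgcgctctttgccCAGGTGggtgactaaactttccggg
*Ap1m2* (chr9:21312284-21312583, minus strand): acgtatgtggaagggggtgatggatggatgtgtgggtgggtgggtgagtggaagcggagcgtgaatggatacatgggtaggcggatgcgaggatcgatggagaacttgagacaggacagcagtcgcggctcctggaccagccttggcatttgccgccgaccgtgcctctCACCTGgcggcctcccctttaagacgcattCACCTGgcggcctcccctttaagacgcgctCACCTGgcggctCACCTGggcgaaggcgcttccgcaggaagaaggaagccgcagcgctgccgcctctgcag
The *Epcam* window held 2 matches, at -187 and -19 from the start, and the *Krt8* window 1, at -111. *Spint2* held 3, at -74, -55 and -9. *Crb3* and *Ap1m2* held 4 each, and those of *Ap1m2* lay at -81, -51, -21 and -9. Of the 13 epithelial genes called higher, 9 had a window in the table and 8 of these held the motif, with *Cldn1* as the exception. A gene counts here where any of its windows holds the motif, and by window it was 10 of 12 (83.3%). Every window printed above holds a match, whereas those of *Cldn1* and window 1 of *Cldn7*, not printed, hold none. *St14*, *Esrp1* and *Cdh1* were among those with no entry. Among the members tested but not called higher, the motif stood in 6 of 13 genes with a window (46.2%). Over all genes with a window, 6098 of 27025 (22.6%) held it. The share was 20.3% of the genes tested (1812 of 8936), 33.4% of those called higher (115 of 344) and 20.2% of those called lower (42 of 208). Outside the epithelial list it was 31.9% of the genes called higher. A match is a description of these letters and no measure of binding.

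Sterol synthesis moved in the other direction. Of 37 genes on the list of sterol and fatty acid synthesis, 34 were tested, and 7 were called lower and 1 higher, at a median log2 fold change of -0.61. By the adjusted p alone, 23 of the 34 genes were lower and 3 higher, beside 1438 and 1534 of all 11573 genes tested. *Sqle*, the squalene epoxidase, had 84.7, 84.7, 92.4, 86.4 and 75.7 CPM in CRE- AMs and 17.6, 37.1, 23.8, 30.4 and 21.1 CPM in CD11b- AMs (log2 fold change -1.70, SE 0.18, adjusted p = 9.06e-07). No CD11b- sample reached the lowest CRE- sample.

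*Insig1*, which holds the sterol sensor in the endoplasmic reticulum, and *Cyp51*, an enzyme of the lanosterol step, fell from means of 119.6 and 130.2 CPM to 52.3 and 59.3 CPM. The desaturase *Fads1* and the elongase *Elovl6* fell from 12.8 and 5.27 CPM to 4.0 and 1.77 CPM. *Srebf2*, the transcription factor of the pathway, had a log2 fold change of -0.79 (adjusted p = 2.51e-04), short of the 2-fold limit. *Scd1*, the stearoyl-CoA desaturase, went the opposite way. It had 4.09, 5.75, 2.65, 3.81 and 5.11 CPM in CRE- AMs and 128, 85.1, 136, 173 and 126 CPM in CD11b- AMs (log2 fold change 4.92, SE 0.22, adjusted p = 5.44e-12), and its paralog *Scd2* had a log2 fold change of 0.83 (adjusted p = 4.37e-06). The summed level of the list was 2888 to 3198 CPM in CRE- AMs and 2235 to 2486 CPM in CD11b- AMs.

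*Scd1* also belongs to the genes known as targets of the oxysterol receptor LXR, and 5 of the 19 tested members of that list were called higher (median 0.29). The others were *Apoe*, *Apoc1*, *Arl4c* and *Abca1*. *Apoe*, the apolipoprotein that macs secrete with cholesterol, had 52.0, 36.1, 34.1, 58.7 and 24.1 CPM in CRE- AMs and 266, 286, 309, 385 and 391 CPM in CD11b- AMs (log2 fold change 3.0, SE 0.20, adjusted p = 1.93e-09). *Abca1*, a cholesterol exporter, averaged 71.6 and 177 CPM, while its partner *Abcg1* averaged 1320.1 and 1113 CPM (log2 fold change -0.25, adjusted p = 7.38e-04). The list of lipid uptake and storage, which shares *Apoe*, *Apoc1* and *Abca1* with it and *Fabp4* with the AM list, had 6 of 27 tested genes called higher and 1 lower (median -0.01). *Lpcat2*, an acyltransferase of phospholipids, rose from a mean of 12.9 to 80.9 CPM, and *Dgat2*, which makes triglycerides, from 93.1 to 283 CPM. Of 26 tested genes of fatty acid oxidation, 2 were called higher, beside 3.98% of all genes tested. They were *Pdk4*, a kinase that restrains pyruvate oxidation (9.35 to 18.0 and 62.2 to 104 CPM), and the acyl-CoA synthetase *Acsl3*.

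Few genes of energy metabolism were called. Among 40 tested genes of glycolysis and the citrate cycle, 2 were called in each direction, a share near that of all genes tested (3.98% higher and 2.51% lower). The glucose transporters *Slc2a1* (23.7 to 36.3 and 95.3 to 111 CPM) and *Slc2a6* (6.93 to 20.3 and 44.5 to 67.0 CPM) were called higher. *Hk1*, a hexokinase, and *Slc16a1*, which carries lactate, were called lower, with log2 fold changes of -1.48 and -1.82. None of 76 tested nuclear genes of oxidative phosphorylation was called in either direction by edgeR, nor by DESeq2 or limma-voom. With edgeR, 26 of them were higher at an unadjusted p under 0.05 and 16 by the adjusted p alone (median 0.11). The adjusted p alone was passed upward by 1534 of all 11573 genes tested. *Atp5b*, a subunit of ATP synthase and the most abundant of them, averaged 1317 and 1341 CPM.

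Most identity genes of AMs passed the test, more of them downward, by amounts mostly under 2-fold. Of 35 tested genes on this list, 18 were lower and 6 higher by the adjusted p alone, beside 1438 and 1534 of all 11573 genes tested. Calls numbered 4 lower and 3 higher, beside 2.51% and 3.98% of all genes tested (median -0.25). *Gpd1*, a dehydrogenase that links glycolysis to lipid synthesis, had 40.8, 47.7, 58.4, 61.6 and 69.6 CPM in CRE- AMs and 3.87, 9.48, 5.27, 10.3 and 9.70 CPM in CD11b- AMs (log2 fold change -2.85, SE 0.27, adjusted p = 1.65e-07), and at most 0.296 CPM in CD11b+ AMs. The transcription factor *Klf9* fell from a mean of 21.0 to 7.59 CPM and the fatty acid binding protein *Fabp4* from 85.6 to 37.6 CPM. *Ear1* had 546 to 592 CPM in CRE- AMs and 201 to 246 CPM in CD11b- AMs. It belongs to a family of near-identical ribonucleases, in which *Ear6* rose from a mean of 1.08 to 11.6 CPM and *Ear2* had 382 to 466 and 237 to 316 CPM, so the counts of single members are uncertain. The protease *Ctsk* (421 to 472 and 909 to 1436 CPM) and the scavenger receptor *Marco* (298 to 503 and 815 to 951 CPM) were the other increases. *Pparg*, the receptor that specifies AMs, had 227 to 253 and 215 to 256 CPM (log2 fold change -0.07, adjusted p = 0.394), and *Chil3* and *Car4* did not pass the test either.

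Genes that all macs share were called in 1 of 21 cases (median -0.04), beside 3.98% higher and 2.51% lower of all genes tested. That gene was *Cd63*, a tetraspanin of late endosomes, with 75.7, 94.3, 74.7, 92.2 and 57.5 CPM in CRE- AMs and 794, 599, 714, 735 and 686 CPM in CD11b- AMs (log2 fold change 3.16, SE 0.11, adjusted p = 3.18e-13). *Lyz2*, *Cd68*, *Tyrobp* and *Ptprc* did not pass the test. The colony-stimulating factor receptor *Csf1r* and the transcription factor *Cebpa* were lower by the adjusted p (8.68e-07 and 1.05e-05) with log2 fold changes of -0.71 and -0.78.

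Among 31 tested genes of the CSF and TGF-β pathways, 5 were called higher and 2 lower (median -0.08). On the ligand side, *Tgfb2* fell from 4.57, 9.24, 7.29, 12.4 and 11.4 CPM in CRE- AMs to 0.588, 0.996, 0.273, 0.675 and 0.145 CPM in CD11b- AMs (log2 fold change -4.04, SE 0.60, adjusted p = 4.68e-05), whereas *Inhba*, a subunit of activin, rose from a mean of 6.51 to 19.2 CPM. On the receptor side, *Csf3r* and the BMP receptor *Bmpr1a* rose and *Il3ra* fell. The GM-CSF receptor chain *Csf2ra* had 560.5 to 695 and 384 to 457 CPM (log2 fold change -0.63, adjusted p = 1.22e-05), and *Tgfbr1* and *Tgfbr2* had log2 fold changes of -0.34 and -0.19. None of these 3 reached the 2-fold limit. Among the downstream genes, the inhibitors of helix-loop-helix factors *Id2* (107, 89.8, 77.9, 78.2 and 68.2 and 309.7, 348, 462, 419 and 349 CPM) and *Id3* (22.2, 15.2, 11.5, 13.1 and 22.3 and 45.4, 57.4, 70.4, 47.3 and 80.2 CPM) rose, with log2 fold changes of 2.17 (adjusted p = 1.41e-10) and 1.84 (adjusted p = 6.17e-06). Among the relatives of *Zeb2*, *Snai1* was called higher at a low level (0 to 0.180 and 0.145 to 0.864 CPM), and *Zeb1* averaged 3.42 and 3.47 CPM (adjusted p = 0.982).

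**Figure D5:**
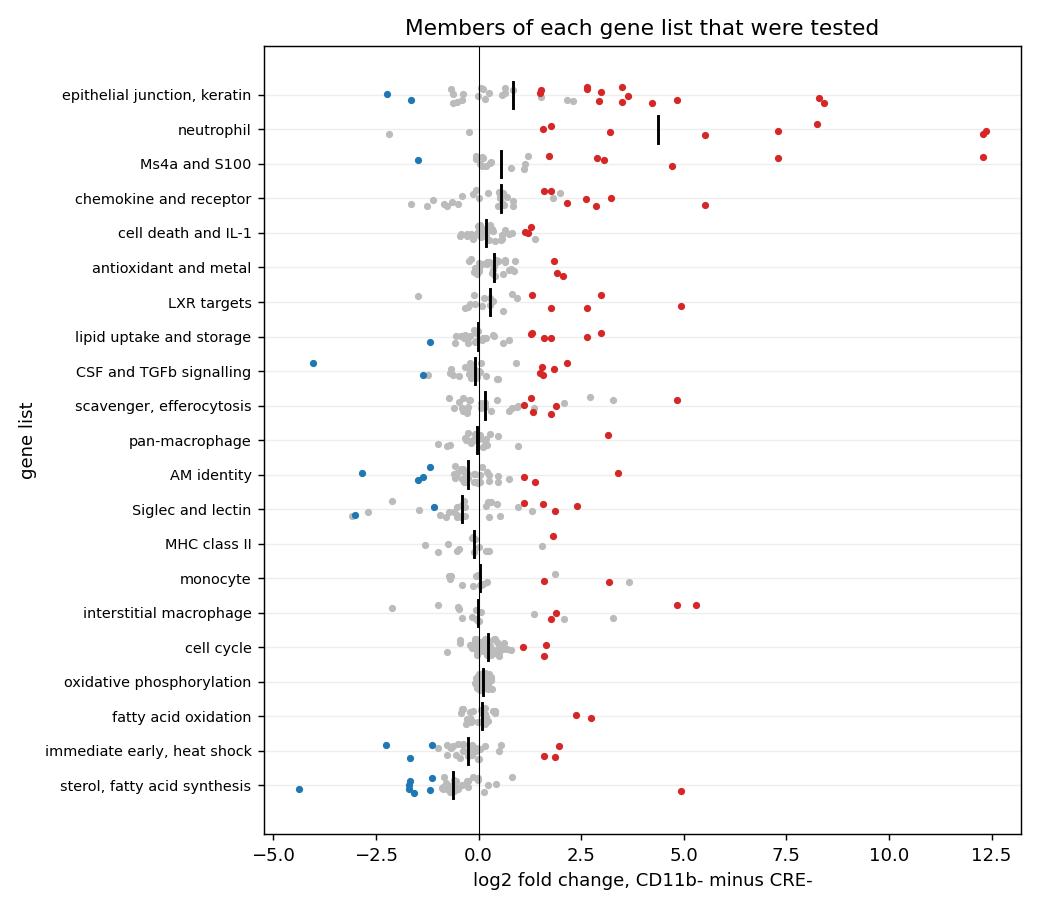
Log2 fold change, CD11b- minus CRE- AMs, of each tested member of 21 gene lists, with members called higher in red, called lower in blue and others in grey, and a black bar at the median of each list. The epithelial list (13 of 33 higher) and the neutrophil list (8 of 10 higher) hold the most red points, and the sterol list (7 of 34 lower) holds the most blue points.

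The largest decreases were in genes of varied function. *Ptprs*, a receptor phosphatase that binds proteoglycans, had 53.8, 27.4, 33.3, 20.4 and 35.8 CPM in CRE- AMs and 1.42, 1.55, 0.909, 2.81 and 3.09 CPM in CD11b- AMs (log2 fold change -4.14, SE 0.32, adjusted p = 1.33e-08). *Hr*, a nuclear corepressor, had 50.8, 45.8, 34.8, 45.7 and 35 CPM and 2.94, 6.30, 4.41, 2.59 and 0.579 CPM (log2 fold change -3.64, SE 0.41). *Igflr1*, a receptor of the TNF receptor type, had 109, 80.4, 63.8, 83.2 and 84.2 CPM and 9.70, 14, 4.14, 8.71 and 11.0 CPM (log2 fold change -3.14, SE 0.25). For each of them the CD11b- samples lay far under the lowest CRE- sample.

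*Fn1*, which encodes fibronectin, had 811, 579, 645, 1011 and 773 CPM in CRE- AMs and 63.0, 96.6, 159.9, 116 and 87.7 CPM in CD11b- AMs, 7.30-fold lower (adjusted p = 5.64e-09). The calcium-binding copine *Cpne5* had 127, 115, 131, 138 and 131 CPM and 17.4, 35.2, 13.7, 21.1 and 13.9 CPM, 6.31-fold lower (adjusted p = 3.75e-08). The kinase *Sik1*, the metalloproteinase inhibitor *Timp2*, the uniporter subunit *Ccdc109b* and the potassium channel *Kcnk5* had log2 fold changes between -2.23 and -2.07. The small GTPase *Rab44* (55.7 to 93.9 and 12.9 to 32.1 CPM) and the lactate carrier *Slc16a1* (36.0 to 52.6 and 9.75 to 14.5 CPM) completed the 12.

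Chemokines and their receptors rose in part. Of 34 tested genes, 7 were called higher, beside 3.98% of all genes tested. By the adjusted p alone 15 were higher, beside 1534 of all 11573 genes tested (median 0.55). Besides *Cxcr2*, its paralog *Cxcr1* rose from 4.22, 5.70, 6.52, 4.83 and 6.25 CPM to 45.6, 47.0, 55.2, 62.3 and 48.3 CPM (log2 fold change 3.23, SE 0.12, adjusted p = 3.36e-13). The membrane-bound chemokine *Cxcl16* rose from 3.09, 3.30, 3.15, 3.02 and 5.90 CPM to 17.9, 17.9, 34.9, 35 and 29.0 CPM (log2 fold change 2.87, SE 0.22, adjusted p = 9.96e-09). *Ccl9*, *Ccl22* and *Ccr2* rose from averages of 54.1, 7.17 and 5.33 CPM to 240.0, 24.2 and 16.1 CPM, and *Cxcr6*, the receptor of *Cxcl16*, from 0.117 to 0.771 CPM, a call that did not hold in 12 of 18 alternatives, 9 of which leave out 1 replicate. Of 37 tested genes of cell death and the IL-1 family, 3 were called higher: the cytokine *Il1a* (129 to 169.6 and 272 to 403 CPM), the antagonist *Il1rn* (316 to 349 and 665 to 779 CPM) and the receptor *Il1r1* (0.479 to 3.2 and 4.03 to 10.1 CPM). The call of *Il1r1* did not hold without CD11b- replicate 3 (log2 fold change 0.94, adjusted p = 0.0626) or with all 33 samples in the fit. *Il1b* had a log2 fold change of 0.81 (adjusted p = 0.00238), short of the limit, and the genes of necroptosis *Ripk1*, *Ripk3* and *Mlkl* did not pass the test.

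The Ms4a and S100 families had 6 of 20 tested members called higher and 1 lower. Apart from *S100a8*, *S100a9* and *Ms4a1*, *S100a6* rose from a mean of 2.70 to 22.5 CPM, *Ms4a3* from 0.154 to 4.27 CPM and *S100a4* from 0.909 to 2.99 CPM, and *Ms4a6c* fell from 19.9 to 7.18 CPM. Of 54 tested cell cycle genes, 3 were called higher, a share near the 3.98% of all genes tested (median 0.23). *Ccnb2*, a mitotic cyclin, had 30.3, 27.0, 23.9, 24.5 and 36.1 CPM in CRE- AMs and 64.0, 63.0, 70.7, 41.4 and 58.9 CPM in CD11b- AMs (log2 fold change 1.07, SE 0.18, adjusted p = 2.05e-04). The inhibitor *Cdkn2b* and the cyclin *Ccnd1* rose at low levels, to means of 3.16 and 3.42 CPM, and the call of *Cdkn2b* did not hold without CD11b- replicate 2 (adjusted p = 0.0566). Immediate early and heat shock genes leaned downward, with 15 of 32 lower and 3 higher by the adjusted p alone and 3 called in each direction (median -0.25). Of all 11573 genes tested, 1438 were lower and 1534 higher by the adjusted p alone. *Egr1* fell from 401, 587, 527, 449 and 422 CPM to 86.1, 213, 132, 151 and 163 CPM (log2 fold change -1.68, adjusted p = 1.91e-06) and *Egr3* by 2.25 on the log2 scale. The heat shock genes *Hspa1a* and *Hspa1b*, nearly identical copies between which reads could be split, rose from means of 10.2 and 13.4 CPM to 39.8 and 48.6 CPM. Genes of this list are known to respond to tissue handling, whose part in the results was not tested.

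Beside the neutrophil and lung epithelial genes described above, markers of other cells were called in a few members each. Of all genes tested, 3.98% were called higher and 2.51% lower. Among 15 tested monocyte genes, *Itgam* and *Ccr2* were called higher, while *Ly6c2*, *F13a1* and *Plac8* averaged 0.967, 0.215 and 0.544 CPM in CD11b- AMs against 110.0, 37.7 and 15.2 CPM in CD11b+ AMs. The summed monocyte list was 1328 to 1535 CPM in CRE- AMs and 791 to 1221 CPM in CD11b- AMs, most of which is *Nr4a1*. Among 18 genes of interstitial macs, *Lyve1*, *Stab1*, *C1qb* and *C1qc* were called higher, to means of 4.98, 0.428, 2.30 and 2.23 CPM. The call of *C1qb* did not hold in 7 of 18 alternatives, limma-voom and 6 that leave out 1 replicate, and that of *C1qc* did not hold with limma-voom or without CD11b- replicate 3. The call of *Stab1* did not hold with limma-voom. The summed list was 935 to 1115 and 621 to 868 CPM, most of it *C5ar1*. The dendritic cell list summed to 17.1 to 22.3 CPM and 33 to 44.1 CPM, with *Ccl22*, which made up most of the sum in CD11b- AMs, and *Zbtb46* called higher of 10 tested. T cell genes summed to at most 7.81 CPM in any CD11b- sample (1 of 8, *Cd28*, called higher, which did not hold in 5 of 18 alternatives), and NK cell genes to at most 14.1 CPM (none of 5 called by edgeR, DESeq2 or limma-voom, 1 at an unadjusted p under 0.05, *Gzma* the highest). B cell genes summed to 91.3 to 137 CPM in CD11b- and 139 to 169 CPM in CRE- AMs, mostly from *Cd22*, with *Ms4a1* called higher and *Cd79a* lower of 6. The call of *Cd79a* did not hold in 9 of 18 alternatives. The defining genes of eosinophils and mast cells summed to at most 3.18 CPM (1 tested, *Kit*, not called and above an unadjusted p of 0.05), and those of endothelium and stroma to at most 42.5 CPM (none of 10 called by these tools or at an unadjusted p under 0.05, *Col3a1* the highest). The part of other cells in the results was not tested.

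The CD11b- fraction stood between CRE- and CD11b+ AMs for most genes that rose, but not for all. Between the 2 CRE+ fractions, 793 genes were higher (6.85% of those tested) and 382 lower (3.30%) in CD11b+ than in CD11b- AMs. This comparison shares the CD11b- samples with the one against CRE- AMs. Of the 461 genes called higher in CD11b- than CRE- AMs, 252 were higher again in CD11b+ AMs, 23 were lower there and 186 were not called. Of the 291 called lower, 54 were lower again in CD11b+ AMs, 73 were higher there and 164 were not called. *S100a9*, *Cd177* and *Krt8* reached 3089.8 to 4129.6, 1955 to 2451 and 380.2 to 733 CPM in CD11b+ AMs, with log2 differences from CD11b- AMs of 2.85, 3.62 and 3.29 (adjusted p = 1.36e-08, 2.46e-11 and 1.09e-09). *Hr* and *Rab44* were lower again, at 0 to 0.641 and 1.16 to 3.02 CPM.

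On a scale from 0%, the mean of CRE- AMs, to 100%, the mean of CD11b+ AMs, *Itgam* stood at 6.07% in CD11b- AMs. Its product was the marker of the sort, so its position depends in part on the gate. Of the 451 genes called higher whose mean in CD11b+ AMs was above that in CRE- AMs, 435 stood farther along than *Itgam*, and the median was 32.9%. These genes were picked by the test of CD11b- against CRE- AMs, which tends to raise their positions. Positions over all genes tested were not summarised, so these values are a description only. *C1qb*, *C1qc* and *Stab1* stood at 3.67%, 3.2% and 3.04%. *Cd177*, *Krt8* and *Ceacam10* stood at 8.15%, 10.2% and 10.2%, *S100a9* and *S100a8* at 13.9% and 16.2%, and *Cxcr2*, *Cd101* and *Epcam* at 26.0%, 30.4% and 33.1%. *Scd1*, *Lcn2*, *Crb3* and *Cdh1* stood at 43.0%, 48.2%, 51.3% and 71.6%. Of the 451 genes, 64 lay beyond 100%, with a higher mean in CD11b- than in CD11b+ AMs.

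Genes that peaked in the CD11b- fraction included *Ddah1*, *Ptgs1* and the cell cycle genes *Ccnb2*, *Ccnd1* and *Cdkn2b*. *Ptgs1*, the constitutive cyclooxygenase, had 42.1, 33.7, 38.9, 45.2 and 33.5 CPM in CRE- AMs, 105, 67.2, 84.1, 80.7 and 81.2 CPM in CD11b- AMs and 33.9, 16.5, 22.7, 20.6 and 17.0 CPM in CD11b+ AMs. The log2 difference was 1.11 (adjusted p = 3.92e-05) against CRE- AMs and -1.92 (adjusted p = 3.62e-08) for CD11b+ against CD11b- AMs. *Ccnb2* had 11.8 to 27.1 CPM in CD11b+ AMs (log2 difference -1.77, adjusted p = 4.79e-07), and 13 of the 54 cell cycle genes were called lower in CD11b+ than in CD11b- AMs.

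Genes at their lowest in the CD11b- fraction included *Fn1* and *Napsa*. *Fn1* had 330.1, 254, 272, 436 and 284 CPM in CD11b+ AMs (log2 difference from CD11b- AMs 1.59, adjusted p = 4.53e-06), so that every CD11b+ sample lay between the CD11b- samples below and the CRE- samples above. *Napsa* had 77.3, 62.5, 70.0, 63.4 and 93.8 CPM in CD11b+ AMs (log2 difference 1.31, adjusted p = 3.80e-07). Of the 34 tested genes of sterol and fatty acid synthesis, 5 were higher and 1 lower in CD11b+ than in CD11b- AMs.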

How the data were processed

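AMs (CD64+ F4/80+ SiglecF+ CD11c+) were sorted by the authors from lungs by FACS, and RNA was sequenced on a NextSeq instrument. Submitters' notes list FastQC 0.11.4, Trimmomatic 0.35, TopHat2 2.1.0, SAMtools 0.1.18 and build mm10. The authors counted reads per gene with HTSeq-count, and the deposited values are these raw counts, with 5 tally rows per file left out here. All 15 AM samples were fitted with edgeR 4.0.16 (R 4.3.3), using TMM factors, filterByExpr and the quasi-likelihood test with Benjamini-Hochberg adjustment. Genes were called with an adjusted p below 0.05 and a change of over 1 on the log2 scale. DESeq2 1.42.0, limma-voom (limma 3.58.1), other filters, factors and sample sets, a replicate block and leaving out each replicate were tried as alternatives. The test was checked on simulated data.

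Named genes were the target, sort and subset markers, the 12 largest increases and decreases among called genes without overlap and averaging 5 log2 CPM or more in their higher group (Gm, Rik and receptor segment symbols left out), up to 4 called members per list with the largest changes (the highest member where none was called), and the highest member of lists of other cells. Other list members were named after their values were seen, and a few members that enter the counts are not reported here by name. The 36 gene lists and the members were chosen with earlier results of these data known. Counting error at 17454078 to 23945366 counts per sample sets a limit of 3 counts, and intervals cover counting error only. The check for deposited duplicates found no pair of samples of 1 group within sampling noise (chi-square per gene of at least 12.4), and Pearson's r across genes within a group was 0.978 to 0.986. Promoters came from a RefSeq table of GRCm38.p6, in which 8936 of the 11573 genes tested had a window.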

Additional observations from a re-analysis of the deposited data

Results flagged for a closer look

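In groups of 5 samples, a highest or lowest sample was set apart where its gap to the next sample exceeded 0.71 of the range. For normally distributed values, chance gives this in about 1 in 20 groups. A group in which 1 sample alone had counts always passes this limit, so that rate does not apply to it. Among 110 named genes and 2 groups, 27 groups had such a sample.

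In CRE- AMs several of these were low levels beside samples at or near 0. Replicate 4 had 0.139 CPM of *Cd177*, replicate 3 had 0.0899 CPM of *Ceacam10* and 0.0450 CPM of *Crb3*, and replicate 1 had 0.478 CPM of *Ap1m2*, 0.0435 CPM of *Stab1*, 0.348 CPM of *Zbtb46* and 0.391 CPM of *Cxcr6*. Replicate 2 had 0.239 CPM of *Cd28*. At higher levels, replicate 1 was low for *Klf9* at 14.4 CPM and replicate 5 low for *Tfrc* at 1.44 CPM. Replicate 2 was high for *Slc2a6* at 20.3 CPM and *Pdk4* at 18.0 CPM, replicate 3 for *Vcam1* at 2.20 CPM and *Clec5a* at 31.8 CPM, replicate 4 for *Col3a1* at 12.3 CPM, and replicate 5 for *Cxcl16* at 5.90 CPM.

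In CD11b- AMs, replicate 3 was low for *Zeb2* at 82.6 CPM, with the next sample at 103 CPM, and high for *Il1r1* at 10.1 CPM. Replicate 1 was low for *Csf3r* at 86.8 CPM. Replicate 2 was high for *Col3a1* at 14.2 CPM and *Cdkn2b* at 5.22 CPM. Replicate 4 was high for *Hspa1a* at 66.7 CPM, *Hspa1b* at 87.7 CPM, *Cd69* at 108.6 CPM, *Gzma* at 5.90 CPM and *Cxcr6* at 1.69 CPM, and low for *Slc7a11* at 34.7 CPM.

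The CRE+ fractions differed from each other in the test of that difference, with 793 genes higher and 382 lower in CD11b+ than in CD11b- AMs.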

How the results depend on the processing

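Requiring at least 10 counts in every sample, which leaves 9829 genes, gave 221 genes higher and 173 lower in CD11b- than CRE- AMs, 404 genes higher in CD11b+ than CD11b- AMs, and 6 epithelial and 4 neutrophil genes higher. Without the limit on fold, the counts were 1534 and 1438 for CD11b- against CRE- AMs and 2295 and 1920 for CD11b+ against CD11b- AMs, and 18 AM identity genes and 23 sterol genes were lower. Under DESeq2, limma-voom, RLE factors, no filter, a fit of the 2 groups alone and a fit of all 33 samples, genes higher in CD11b- than CRE- AMs numbered 371 to 491 and genes lower 285 to 327. Leaving out 1 replicate gave 434 to 455 higher and 259 to 316 lower, 743 to 820 higher and 345 to 402 lower for CD11b+ against CD11b- AMs, 12 to 14 epithelial and 8 neutrophil genes higher, and 7 to 8 sterol and 4 AM identity genes lower. Of 101 named genes called, 89 had no loss of the call counted in 18 alternatives, and none changed direction. Genes left untested by the filter of at least 10 counts in every sample were not counted as losing the call. *Cd177*, with 3 counts in all CRE- samples together, could not pass that filter and is among the 89. The number 89 therefore does not show that calls hold under that filter, and counts out of 18 for single genes are limited in the same way. The 12 counted as losing the call at least once were *Muc1*, *Stab1*, *C1qb*, *C1qc*, *Cd28*, *Cd79a*, *Cdkn2b*, *Il1r1*, *Nlrc5*, *Oas3*, *Cxcr6* and *Itga9*, and the cause was not tested.

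Samples of the same number shared only a number between CRE- and CD11b- AMs, with correlations of their deviations of -0.027 to 0.113 and 2 of 5 samples closest to their own number. Between the CRE+ fractions these were 0.086 to 0.148 and 5 of 5, a hint from the data and not from the design. With the replicate block, 447 genes were higher and 298 lower in CD11b- than CRE- AMs, 711 of which were also called without it, and 807 and 377 in CD11b+ against CD11b- AMs.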

Other observations

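Genes of metal handling and defence against oxidants were higher in CD11b- than CRE- AMs in 18 of 34 tested members by the adjusted p, mostly by small amounts (median 0.37). Of all 11573 genes tested, 1534 were higher by the adjusted p. The 3 called were *Nqo1*, a quinone reductase, *Slc7a11*, the cystine carrier, and *Tfrc*, the transferrin receptor, with means of 2.88, 15 and 4.94 CPM in CRE- AMs and 12.1, 56.3 and 17.8 CPM in CD11b- AMs. The ferritin chain *Fth1* had a log2 fold change of 0.39 (adjusted p = 3.95e-06 by edgeR). Lysosomal genes were called higher in 3 of 42 cases (*Cd63*, *Ctsk* and *Gpnmb*, a glycoprotein of lipid-laden macs, at 454 to 576 and 1298 to 1474 CPM) and lower in 1 (the protease *Ctsf*, 58.1 to 69.1 and 15.2 to 27.1 CPM). Of all genes tested, 3.98% were called higher and 2.51% lower.

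Receptors moved in single members. The counts of calls in this paragraph stand beside 3.98% of all genes tested called higher and 2.51% called lower. Of 31 tested lectins, 4 were called higher, including *Clec5a* (22.5 to 31.8 and 119 to 143 CPM), *Clec4d* (6.44 to 11.6 and 23.1 to 27.1 CPM) and *Cd69* (12.7 to 23.2 and 57.6 to 109 CPM), and 2 lower, including *Cd209b* (means of 4.35 and 0.544 CPM). By the adjusted p alone, 10 of these lectins were lower and 6 higher (median -0.39), beside 1438 and 1534 of all 11573 genes tested. Of 33 scavenger and efferocytosis genes, 6 were called higher, among them the bridging protein *Mfge8* (9.53 to 13 and 24.4 to 35.7 CPM), *Marco* and *Msr1*. Of 26 integrin and adhesion genes, 4 were called higher and 1 lower. *Vcam1* had means of 0.558 and 6.36 CPM, and *Itga7* and *Itga9* had no count in CRE- AMs and were at least 4.2-fold and 1.90-fold higher against a floor of 3 counts per library. The call of *Itga9* did not hold with limma-voom. Of 24 eicosanoid genes, *Ptgs1* was called higher and the leukotriene receptor *Cysltr1* lower (means of 5.54 and 0.984 CPM). Of 14 genes that mark Kupffer cells, the macs of the liver, *Id3* and *Marco* were called higher. Of 29 interferon-stimulated genes, *Oasl2*, *Usp18* and *Oas3* were called higher, to means of 9.90, 2.25 and 4.99 CPM, and *Oas3* lost its call in 2 of 18 alternatives.

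Antigen presentation genes were called in 1 of 14 members of class II (H2-Oa, means of 2.48 and 8.71 CPM) and 1 of 17 of class I (its activator *Nlrc5*, means of 1.46 and 3.40 CPM, a call that did not hold in 9 of 18 alternatives). Both were called higher, as were 3.98% of all genes tested. By the adjusted p alone, 1 class II gene was higher and 2 were lower (median -0.12), beside 1534 and 1438 of all 11573 genes tested. The summed class II list was 4973 to 5607 CPM in CRE- AMs and 3071 to 3472 CPM in CD11b- AMs, most of it *Ctss*. The invariant chain gene *Cd74* averaged 173, 161 and 536 CPM in CRE-, CD11b- and CD11b+ AMs.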
